A study of Mus musculus with 6 samples.

Results

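The 37 genes described here are protein-coding genes of the 4 mouse Hox clusters, of 19938 genes named by 1 symbol on the array. They were chosen by name alone: the symbol Hoxa, Hoxb, Hoxc or Hoxd followed by a number. The HoxA cluster gave 10 members and HoxB, HoxC and HoxD 9 each. Hoxb8 shares its transcript cluster (the set of probes that reads 1 transcript unit) with Hoxb7 in the platform annotation and is not a member. Transcript levels came from 6 Affymetrix mouse gene arrays, 1 for each culture of MEFs, the fibroblasts of mouse embryos, which are a mixture of mesenchymal cells from most of the body. Of the cultures, 3 were Rb1+/+ and 3 were Rb1L/L, all from embryos of day 13.5, grown to passage 4 and harvested while proliferating. Rb1 encodes the retinoblastoma protein pRb, and the L allele is known to alter the cleft through which pRb binds proteins that carry an LXCXE motif. The cells are cultures of whole-embryo origin, so they can hold fibroblasts of several body regions, and fewer cells of a kind cannot be told apart from less RNA per cell.

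Hox proteins are homeodomain transcription factors that give cells of the embryo their position along the head-to-tail axis and, in HoxA and HoxD, along the limb. Within a cluster the genes lie in the order in which they are switched on, low paralogue numbers (toward the head) at one end and high numbers (toward the tail and the limb tip) at the other. Fibroblasts keep a Hox pattern of the site they came from through many divisions in culture. Polycomb proteins hold silent Hox genes repressed and Trithorax-group proteins keep active ones on.

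Over the tested genes, the correlation of arrays of one genotype was 0.9948 to 0.996 and that of arrays of different genotypes 0.9873 to 0.9927. A gene was tested when its mean level exceeded log2 5.081. That receptor level is the 90th percentile over 1194 odour and pheromone receptor genes, which fibroblasts should not transcribe. The arrays numbered 1 held the low Xist values of the series (5.13 in Rb1+/+ and 4.79 in Rb1L/L, against 11.44 to 11.61 in the other 4), so each genotype held 1 culture of male type, with the same number. Fibroblast markers were high, as Col1a1 lay between 12.38 and 12.73 and Vim between 13.30 and 13.50 on the log2 scale. Of 11 tested neural markers, from tissue that also transcribes Hox genes, Fabp7 (-0.50), Ncam1 (-0.30) and Tubb3 (-0.48) were lower in Rb1L/L cultures and none was higher. The mean level of the 13 neural markers on the array ran from 7.175 to 7.3 in Rb1+/+ and from 6.974 to 7.146 in Rb1L/L cultures, with Dcx and Olig2 below the receptor level. Of 11 fibroblast markers Col3a1 (-0.33) and Lum (-0.39) fell, and their mean level ran from 10.961 to 11.066 and from 10.864 to 10.905. Of 5 macrophage markers 3 rose (Adgre1, Cd14 and C1qa), with a mean level from 6.226 to 6.545 in Rb1+/+ and from 6.624 to 6.995 in Rb1L/L cultures. Of 5 endothelial markers Kdr rose (0.58, limma adjusted p = 0.00663), and Pecam1 had a mean below the receptor level. Cdh5 (-0.06, adjusted p = 0.646), Tek (-0.0045, adjusted p = 0.977) and Tie1 (0.04, adjusted p = 0.745) lay near 0. Of 5 epithelial markers none passed by limma, and none had an unadjusted p under 0.05. Epcam had a mean below that level, and Krt8, Krt14 and Krt18 had means above it. Of all 15462 tested genes, 5.08% were called lower and 7.1% higher. The shares called lower were 27.3% of the tested neural and 18.2% of the fibroblast markers. Those called higher were 60% of the macrophage and 25% of the 4 tested endothelial markers. Of 4 tested cartilage and 5 tested skeletal muscle markers none was called. The groups did not overlap for 3 of the cartilage markers (75%) and 1 of the muscle markers (20%), all lower in Rb1L/L. That compares with 18.3% of all tested genes. The part of any of these cell types in the Hox values was not tested.

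The comparison asked which Hox genes differ between Rb1L/L and Rb1+/+ cultures. Hoxb9 was the 1 gene of 35 tested Hox genes that fell, and none rose. A share of 2.86% compares with 5.08% of all 15462 tested genes that were lower. For increases, limma gave 0 Hox genes (0 also at an unadjusted p under 0.05), against 7.1% of all genes. With Hoxb9 included, 7 Hox genes (20%) had an unadjusted p under 0.05 and a lower value in Rb1L/L, against 14.4% of all genes. The groups did not overlap for 8 Hox genes (22.9%), all of them lower in Rb1L/L, against 18.3% of all tested genes, and no Hox gene was separated the other way, against 16.2%. The log2 fold change (Rb1L/L minus Rb1+/+) was below 0 for 25 of the 35 (71.4%), against 56.4% of all genes. Its median over the Hox genes was -0.108, and over all tested genes -0.021.

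Arrays of the same number share part of their deviation, so the same comparison was also made with the number as a block, that is, within pairs. Then 6 Hox genes fell: Hoxb9 with Hoxa10, Hoxa13, Hoxc8, Hoxd12 and Hoxd13. That is 17.1% of the tested Hox genes against 6.45% of all genes, and again none rose (7.99% of all genes did). Without one array in turn the unblocked count of lower Hox genes lay between 0 and 2. It was 0 when either array numbered 1 was left out. It was 2 when Rb1+/+ replicate 2 (Hoxb9 and Hoxa13), Rb1+/+ replicate 3 (Hoxb9 and Hoxa3) or Rb1L/L replicate 3 (Hoxa10 and Hoxd10) was. The labels do not say that cultures of one number form pairs, nor that the 3 cultures of a genotype came from separate litters. The p-values thus measure the spread between these cultures.

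**Figure D1:**
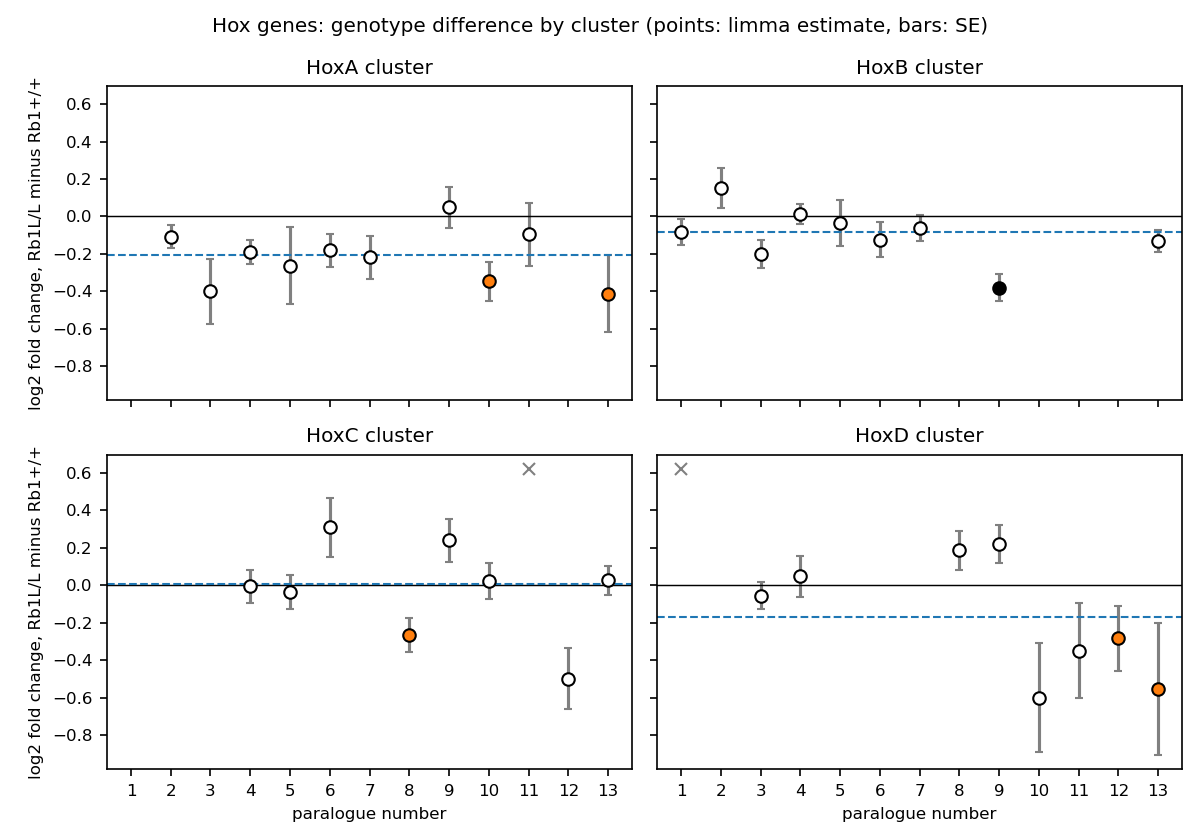
Log2 fold change (Rb1L/L minus Rb1+/+, vertical axis) of each tested Hox gene against its paralogue number, 1 panel per cluster, with the moderated SE as bars. The black point (Hoxb9) passed the adjusted threshold, orange points passed only with the replicate block, crosses at the top mark Hoxc11 and Hoxd1, which were not tested, and the dashed blue line is the cluster's median (-0.20, -0.08, 0.01 and -0.17 for A to D).

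In the HoxB cluster, Hoxb9, a gene that takes part in patterning the thoracic vertebrae and ribs, measured log2 9.63, 9.58 and 9.56 in Rb1+/+ cultures 1 to 3 and 9.12, 9.35 and 9.16 in Rb1L/L cultures 1 to 3. All Rb1L/L values lay below all Rb1+/+ values, and Rb1L/L replicate 2 was nearest to the controls. The level was 1.30-fold lower, with a log2 fold change of -0.38 ± 0.07 (SE, limma adjusted p = 0.0182, or 0.0196 with the replicate block). The call did not hold when Rb1+/+ replicate 1 was left out (adjusted p = 0.0602), nor when Rb1L/L replicate 1 (0.0659) or 3 (0.052) was.

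The other 8 tested HoxB genes did not pass. Hoxb3, expressed in the hindbrain and branchial arches, had -0.20 ± 0.08 (adjusted p = 0.12), and Hoxb13, the tail-end gene of the cluster, -0.13 ± 0.06 (adjusted p = 0.191); in both the groups did not overlap. Hoxb2, which acts in hindbrain segments, had the highest value of the cluster, 0.15 ± 0.11 (adjusted p = 0.398). It measured 9.15, 9.24 and 8.85 in Rb1+/+ and 9.10, 9.29 and 9.30 in Rb1L/L cultures, so that the low value of Rb1+/+ replicate 3 set the difference. Hoxb4 was measured most closely, at 7.43 to 7.46 in Rb1+/+ and 7.42 to 7.50 in Rb1L/L cultures, with a 95% interval of the log2 fold change from -0.11 to 0.14. Hoxb1, Hoxb5, Hoxb6 and Hoxb7 lay between -0.12 and -0.03. The median of the 9 HoxB genes was -0.082, and 3 of them (33.3%) were lower in all 3 pairs, near the 29.3% of all tested genes. The median was -0.0464 when Rb1+/+ replicate 1 was left out, -0.1451 without its replicate 3 and -0.0443 without replicate 3 of Rb1L/L.

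The HoxA cluster had the most genes on one side: 9 of 10 were below 0, with a median of -0.204, and 5 were lower in all 3 pairs (in the 4 clusters together this held for 14 of 35 genes, or 40%, against 29.3% of all tested genes). The HoxA median was -0.1185 when Rb1+/+ replicate 1 was left out and -0.1355 when Rb1L/L replicate 2 was. No HoxA gene passed without the block. Hoxa10, which patterns the lumbar vertebrae and the uterus, stood at 7.79, 7.65 and 7.73 in Rb1+/+ and at 7.32, 7.20 and 7.62 in Rb1L/L cultures. The groups did not overlap, but Rb1L/L replicate 3 came close to the controls. Its log2 fold change was -0.35 ± 0.11 (adjusted p = 0.0682, 0.04 with the replicate block, and 0.0186 without Rb1L/L replicate 3).

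Hoxa13, which is needed for digits and the genital and urinary outlets, measured 6.63, 6.17 and 7.07 in Rb1+/+ and 6.22, 6.004 and 6.42 in Rb1L/L cultures. The groups overlapped, since Rb1+/+ replicate 2 was lower than 2 of the 3 Rb1L/L cultures. Yet each Rb1L/L culture lay below the Rb1+/+ culture of the same number, by 0.42, 0.17 and 0.65. The log2 fold change was -0.41 ± 0.21 (adjusted p = 0.228, or 0.0307 with the block). Hoxa4 (-0.19 ± 0.06, adjusted p = 0.0855) and Hoxa2 (-0.11 ± 0.06, adjusted p = 0.298), which shapes the second branchial arch, also had groups that did not overlap. Hoxa3, Hoxa5 and Hoxa7 followed another pattern over the arrays. Each was highest in Rb1+/+ replicate 1 and lowest in Rb1L/L replicate 2, and Rb1L/L replicate 3 exceeded Rb1+/+ replicate 3. Hoxa5, a gene of lung and neck development, thus ran over 8.08, 7.76 and 7.28 in Rb1+/+ and 7.56, 7.11 and 7.66 in Rb1L/L, for -0.26 ± 0.21 (adjusted p = 0.449). Hoxa3, needed for thymus and parathyroid, had -0.40 ± 0.17 (adjusted p = 0.169), Hoxa6 and Hoxa7 -0.18 and -0.22, and Hoxa11, a forearm gene, -0.10. Hoxa9 measured 7.23, 6.86 and 7.16 in Rb1+/+ and 7.05, 7.06 and 7.29 in Rb1L/L cultures, with overlapping groups. It was the one gene above 0 (0.05 ± 0.11), with a sign that turned without Rb1+/+ replicate 2 (-0.06) or Rb1L/L replicate 3 (-0.03).

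HoxC genes went both ways. The median of the 8 tested was 0.01 and turned negative with array weights (-0.0065), without the filter on dim genes (-0.006), and when Rb1+/+ replicate 3 (-0.0838) or Rb1L/L replicate 2 (-0.0244) was left out. It was also negative without both arrays numbered 2 (-0.0569) or both numbered 3 (-0.073). Hoxc8, which acts in thoracic vertebrae and in the nerve cells of the forelimb, was at 10.23, 10.50 and 10.46 in Rb1+/+ and at 9.99, 10.20 and 10.19 in Rb1L/L cultures. The groups did not overlap and the pairs were alike, Rb1L/L being lower by 0.24, 0.30 and 0.26. The log2 fold change of -0.27 ± 0.09 missed the threshold (adjusted p = 0.0988) and passed with the block (0.0274).

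Hoxc12 had the lowest value of the cluster, -0.50 ± 0.16 (adjusted p = 0.0853, or 0.0939 with the block). It measured 6.98, 6.53 and 6.49 in Rb1+/+ and 5.91, 6.46 and 6.13 in Rb1L/L cultures. The groups did not overlap, but the difference was -1.07 in the pair numbered 1 and -0.07 and -0.35 in the others. At the other side, Hoxc6 had 0.31 ± 0.16 (adjusted p = 0.236) and Hoxc9 0.24 ± 0.11 (adjusted p = 0.206), both genes of the trunk. Hoxc6 measured 9.04, 9.17 and 8.55 in Rb1+/+ and 9.13, 9.42 and 9.14 in Rb1L/L cultures, higher in each pair although the groups overlapped. Hoxc4, Hoxc5, Hoxc10 and Hoxc13 lay within 0.04 of 0. Hoxc11 stayed at 4.56 to 4.80, below the receptor level.

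In HoxD the median of the 8 tested genes was -0.17. It was -0.0914 without the filter, -0.0758 when Rb1L/L replicate 2 was left out and -0.2633 when its replicate 3 was. The 4 genes at the tail and limb-tip end, Hoxd10, Hoxd11, Hoxd12 and Hoxd13, had log2 fold changes of -0.60 ± 0.29, -0.35 ± 0.25, -0.28 ± 0.17 and -0.55 ± 0.35. Each was lower in all 3 pairs, and the groups overlapped for each. None passed without the block (adjusted p = 0.216, 0.406, 0.322 and 0.343). With the block Hoxd12 (adjusted p = 0.0441) and Hoxd13 (0.0354) fell, and Hoxd10 (0.057) and Hoxd11 (0.0526) missed the threshold. Next to them in the cluster, Hoxd8 and Hoxd9 were higher in all 3 pairs, by 0.19 ± 0.10 (adjusted p = 0.279) and 0.22 ± 0.10 (adjusted p = 0.192). Hoxd9 measured 6.34, 6.47 and 6.34 in Rb1+/+ and 6.37, 6.74 and 6.70 in Rb1L/L cultures, and the groups overlapped. With Hoxc6 and Hoxc9 they made up the 4 Hox genes (11.4%) that were higher in all 3 pairs, against 23% of all tested genes. The difference between the neighbours in HoxD was not tested. Hoxd3 and Hoxd4 had -0.06 and 0.05, and Hoxd1, at 4.73 to 5.04, was below the receptor level.

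Hoxd13, which shapes the digits, measured 7.97, 7.68 and 8.53 in Rb1+/+ and 7.67, 6.68 and 8.16 in Rb1L/L cultures. In both genotypes the array numbered 3 was the highest and the array numbered 2 the lowest, and Rb1L/L replicate 3 exceeded 2 of the 3 controls. Hoxd12, from the same end of the cluster, measured 6.31, 6.03 and 6.46 in Rb1+/+ and 5.95, 5.65 and 6.35 in Rb1L/L cultures, again lowest in the arrays numbered 2. Hoxd10 measured 7.54, 7.45 and 7.82 in Rb1+/+ and 7.08, 6.29 and 7.65 in Rb1L/L cultures. Only Rb1L/L replicate 2 stood more than 1 log2 unit under the Rb1+/+ culture of the same number. All 5 of Hoxa13 and Hoxd10 to Hoxd13 were highest in Rb1+/+ replicate 3 and lowest in Rb1L/L replicate 2. Without Rb1L/L replicate 2 the log2 fold change of Hoxd13 was -0.14 and that of Hoxd10 -0.24. Without Rb1L/L replicate 3 Hoxd10 passed at -0.92 (adjusted p = 0.0497). That order of extremes, highest in Rb1+/+ replicate 3 and lowest in Rb1L/L replicate 2, held for 7.79% of all tested genes. Among the 35 tested Hox genes it held for Hoxa13 and Hoxd10 to Hoxd13 alone, a share of 14.3%. The order was taken from these 5 genes, and Hoxd10 to Hoxd13 are neighbours, so their share describes them and is no test. It held for 5 of 26 positional and limb factors (19.2%), namely Gli3, Hand1, Nr2f2, Tbx18 and the forelimb factor Tbx5, which ran from 7.88 down to 7.35. It also held for 5 of 36 other homeobox genes (13.9%), namely Alx1, Lhx2, Meox2, Msx2 and Prrx1. The highest share was in the Trithorax-group genes and H3K27 demethylases, with 4 of 20 (20%), namely Kmt2a, Kmt2b, Kmt2e and Ncoa6. Of 26 genes that flank the clusters it held for 3 (11.5%), and it held for no Polycomb or cofactor gene. The hindlimb factor Tbx4 was low in both arrays numbered 2 (7.67 in Rb1+/+ and 7.66 in Rb1L/L, against 8.18 to 8.27 elsewhere). Some other members of the positional and homeobox lists went the opposite way to Tbx5 between the arrays of that number. The Rb1L/L value was the higher one for Fgf10 (8.60 against 8.23), Hand2 (7.40 against 7.25), Twist1 (9.12 against 8.82) and Shox2 (7.17 against 6.88). The part of limb cells in the HoxD values was not tested.

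**Figure D2:**
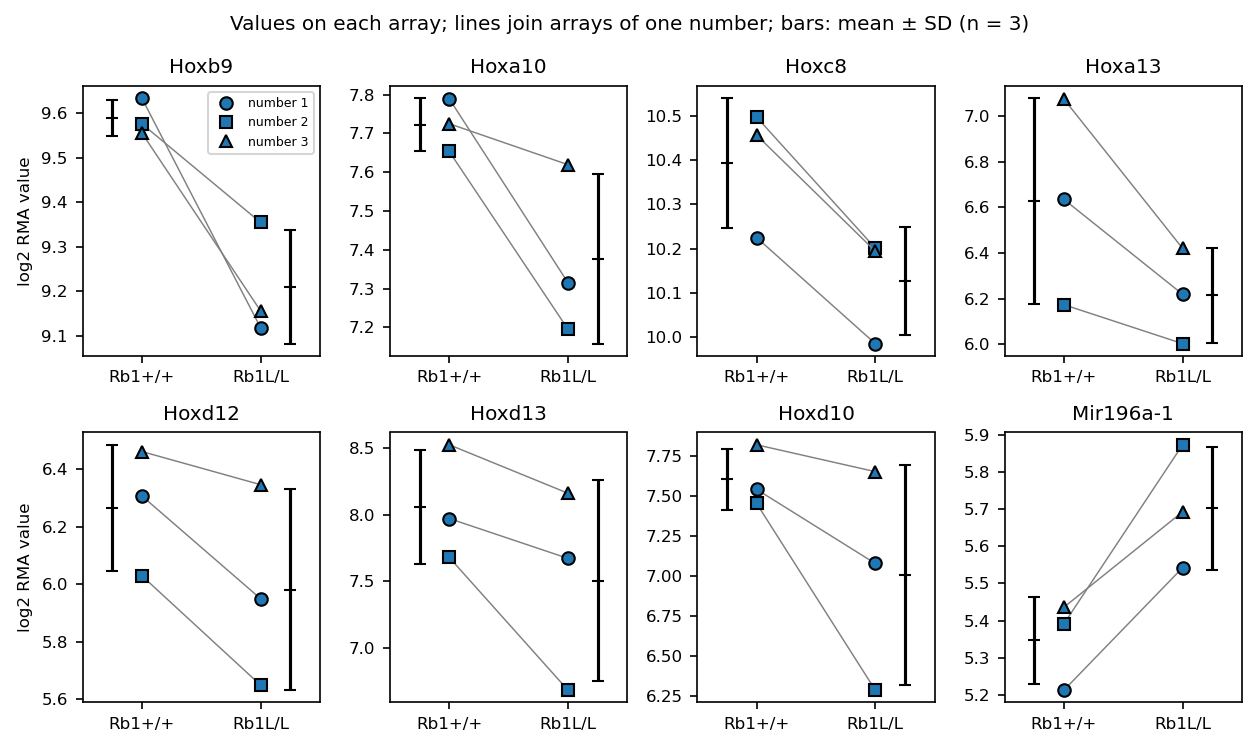
Log2 RMA value (vertical axis) on each array for Hoxb9, the 5 Hox genes that passed only with the replicate block, Hoxd10 and Mir196a-1, by genotype. Lines join arrays of the same number and bars give the mean ± SD (n = 3). Every Hox line goes down from Rb1+/+ to Rb1L/L and every Mir196a-1 line goes up, while Hoxa13, Hoxd10, Hoxd12 and Hoxd13 overlap between genotypes.

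**Figure D3:**
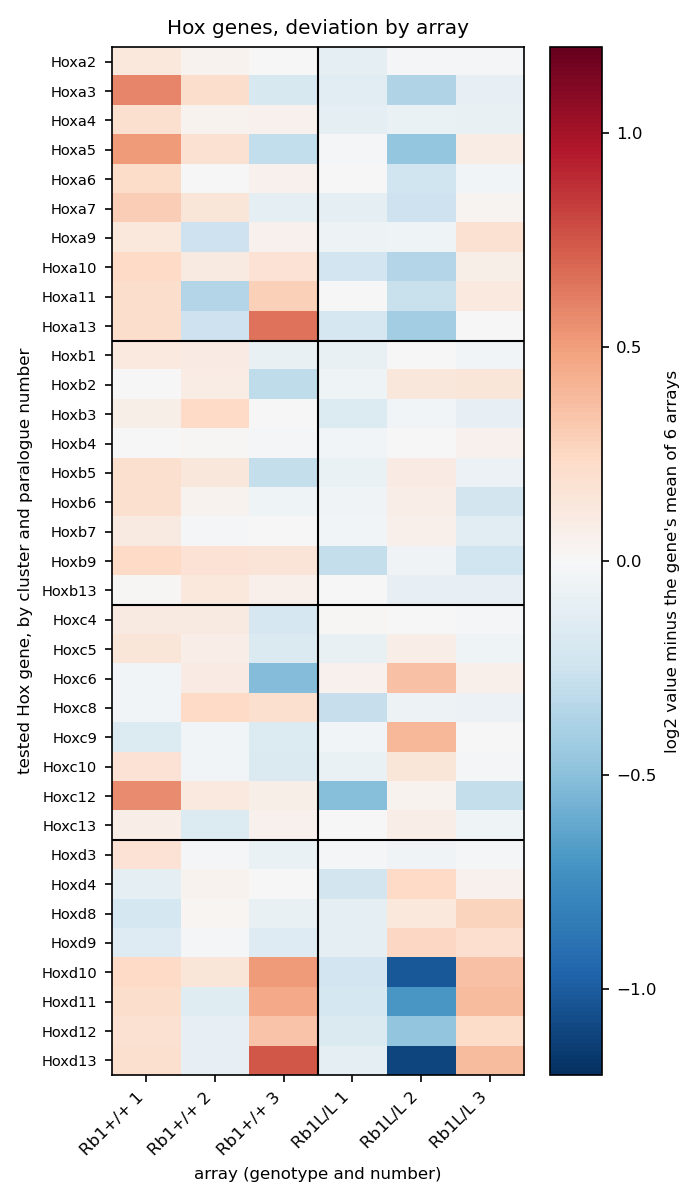
Log2 value of each tested Hox gene (rows, by cluster and paralogue number) on each array (columns) minus the gene's mean of 6 arrays, from blue (below) to red (above). Hoxd10 to Hoxd13 and Hoxa13 are reddest in Rb1+/+ replicate 3 and bluest in Rb1L/L replicate 2, and Hoxb9 is above its mean in all 3 Rb1+/+ and below it in all 3 Rb1L/L arrays.

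Read across the clusters by paralogue number, the 15 tested genes of groups 9 to 13 had a median log2 fold change of -0.284, the 14 of groups 4 to 8 -0.05 and the 6 of groups 1 to 3 -0.095. These medians moved with single arrays. With Rb1+/+ replicate 3 left out, that of groups 9 to 13 was -0.1866 and that of groups 4 to 8 -0.155. With Rb1L/L replicate 2 left out, they were -0.116 and -0.0928. That of groups 4 to 8 was -0.0095 when Rb1+/+ replicate 1 was left out and -0.018 when Rb1L/L replicate 3 was. That of groups 1 to 3 was -0.0586 without Rb1+/+ replicate 1. Of the 15, 9 (60%) were lower in all 3 pairs, against 29.3% of all tested genes, and 2 (13.3%) were higher, against 23%. Members of one group did not move as one. In group 9, Hoxb9 fell while Hoxa9, Hoxc9 and Hoxd9 had positive values (0.05, 0.24 and 0.22), none of which passed. In group 13, Hoxa13 (-0.41), Hoxb13 (-0.13) and Hoxd13 (-0.55) lay below 0 and Hoxc13 at 0.03. Rb1+/+ replicate 1 was the highest array for 16 of the 35 Hox genes, and Rb1L/L replicate 1 and 2 were the lowest for 9 and 10. The Hox median was -0.0591 when Rb1+/+ replicate 1 was left out. Without both arrays numbered 1 it was -0.042, without those numbered 2 -0.129 and without those numbered 3 -0.149.

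The start regions of 3 of the genes that fell within pairs are shown because pRb acts at promoters through E2F factors. They run from 250 bases before to 50 after the annotated start (RefSeq, GRCm38.p6), 5′ to 3′ on the gene's strand, with CCAAT (either strand) and TATAAA (either strand, the matches overlapping in Hoxd13) in capitals.
Hoxa13 (chr6:52260831-52261130, minus strand): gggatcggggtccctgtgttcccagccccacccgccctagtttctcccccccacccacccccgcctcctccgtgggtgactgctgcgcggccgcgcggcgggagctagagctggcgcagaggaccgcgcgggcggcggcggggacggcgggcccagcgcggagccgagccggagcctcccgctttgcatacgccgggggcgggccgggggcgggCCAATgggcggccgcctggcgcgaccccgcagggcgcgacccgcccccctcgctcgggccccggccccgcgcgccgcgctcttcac
Hoxd12 (chr2:74674763-74675062, plus strand): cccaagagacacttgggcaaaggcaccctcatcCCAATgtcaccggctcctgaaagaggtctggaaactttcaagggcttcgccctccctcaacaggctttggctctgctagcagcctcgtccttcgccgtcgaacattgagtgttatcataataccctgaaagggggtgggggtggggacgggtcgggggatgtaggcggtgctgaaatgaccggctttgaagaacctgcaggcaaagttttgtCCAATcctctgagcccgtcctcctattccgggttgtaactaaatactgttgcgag
Hoxd13 (chr2:74667975-74668274, plus strand): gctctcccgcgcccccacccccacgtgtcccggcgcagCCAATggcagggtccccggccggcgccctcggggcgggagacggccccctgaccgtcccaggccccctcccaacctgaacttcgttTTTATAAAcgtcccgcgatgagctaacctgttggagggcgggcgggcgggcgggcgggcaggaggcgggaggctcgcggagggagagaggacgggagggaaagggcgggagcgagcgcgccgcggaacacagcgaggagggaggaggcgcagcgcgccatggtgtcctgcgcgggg

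The E2F-type words TTTCGCGC, TTTCCCGC, TTTGGCGC and TTTGCCGC were searched on both strands. They occurred in none of the 23 windows of 21 Hox members in the table, and in 2.26% of all 32851 windows. CCAAT was found in 14 of the 23 Hox windows and in 37.4% of all windows, TATAAA in 3 and 13.6%, the Hox-Pbx word TGATTNAT in 2 and 3.22%, and the Meis word TGACAG in 2 and 19.2%. The Hox windows held a median of 15 CG dinucleotides, with 45 in Hoxa13, 37 in Hoxd13 and 13 in Hoxd12, against 7 over all windows. These are matches of letters in a window and say nothing of what binds there.

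Hox clusters also carry microRNA genes, among them the miR-196 family, which is known to cut or repress Hox messengers such as that of Hoxb8. Mir196a-1 lies between Hoxb9 and Hoxb13 and is shown because it was the 1 called of 5 tested noncoding transcripts of the clusters. It moved opposite to Hoxb9, but so did the 7.1% of all tested genes called higher. Any effect of it on Hoxb9 was not tested. The mature strands follow with the seed (bases 2 to 8, which pair with targets) in capitals, as RefSeq gives them for GRCm38.p6. They are miR-196a-5p of Mir196a-1 (chr11:96265187-96265208, plus strand), miR-196b-5p of Mir196b in HoxA (chr6:52230129-52230150, minus strand) and miR-615-3p of Mir615 in HoxC (chr15:103014969-103014990, plus strand).
miR-196a-5p: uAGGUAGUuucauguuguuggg
miR-196b-5p: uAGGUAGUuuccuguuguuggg
miR-615-3p: uCCGAGCCugggucucccucuu

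The miR-196 strands share their seed, and miR-615-3p has another. The array reads the transcript over the hairpin, not the mature strand. Mir196a-1 measured 5.21, 5.39 and 5.44 in Rb1+/+ and 5.54, 5.87 and 5.69 in Rb1L/L cultures, with groups that did not overlap. It rose by 0.36 ± 0.10 (adjusted p = 0.0482, or 0.0187 with the block), at a level just above the receptor threshold. The call did not hold without any 1 of the 6 arrays (adjusted p from 0.0518 to 0.135), nor without the filter (0.0565) or with array weights (0.0671). Mir196b had -0.07 (adjusted p = 0.783) and Mir615 -0.02 (adjusted p = 0.868). Mir196a-2, which gives the same mature strand as Mir196a-1, stood at 4.33 to 4.78 and, with Mir10a, Mir10b, Hottip and Haglr, below the receptor level. It was therefore not tested, but its values went opposite to those of Mir196a-1. They were lower in Rb1L/L in all 3 pairs (-0.33, -0.25 and -0.08), and the groups did not overlap. The antisense transcripts Hoxaas2 and Hoxd3os1 had -0.17 (adjusted p = 0.117) and 0.05 (adjusted p = 0.717).

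Genes that flank the clusters were read for comparison. Of 26 tested, 2 fell and 1 rose (12.2% of all tested genes changed in either direction), and their median was -0.006. Calcoco1, a coactivator and autophagy receptor gene beside HoxC, measured 9.98, 9.60 and 9.73 in Rb1+/+ and 9.24, 9.12 and 9.20 in Rb1L/L cultures, without overlap. It fell by 0.58 (SE 0.10, adjusted p = 0.0108). The ATP synthase subunit gene Atp5g1, near HoxB, fell by 0.29 (SE 0.06, adjusted p = 0.0224), and Atp5g3, near HoxD, rose by 0.24 ± 0.06 (adjusted p = 0.0286). The call of Atp5g3 was lost in each fit without 1 array, as was that of Atp5g1 when replicate 1 or 3 of Rb1+/+, or replicate 1 or 2 of Rb1L/L, was left out. Evx1 and Evx2, homeobox genes at the tail ends of HoxA and HoxD, had -0.17 (adjusted p = 0.0888) and -0.15 (adjusted p = 0.18).

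The partners of Hox proteins did not pass. Of 11 tested cofactor and Cdx genes none fell and none rose by limma, with 0 in each direction at an unadjusted p under 0.05, and the median was -0.039. Meis2, a partner that helps Hox proteins choose their sites, had -0.22 (adjusted p = 0.2), Pbx2 -0.14 (adjusted p = 0.268) and Meis1 0.00 (adjusted p = 0.987). Without Rb1+/+ replicate 3, 1 cofactor gene was called lower.

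Of 31 Polycomb genes 3 rose and 2 fell, with a median of -0.016. These shares, 9.68% and 6.45%, lie near those of all tested genes (7.1% higher and 5.08% lower). Pcgf5, a subunit of a variant Polycomb repressive complex 1, measured 7.13, 7.10 and 7.32 in Rb1+/+ and 7.65, 7.78 and 7.50 in Rb1L/L cultures, without overlap. It rose by 0.46 ± 0.09 (adjusted p = 0.0181). Phf19, an accessory subunit of Polycomb repressive complex 2, rose by 0.34 ± 0.08 (adjusted p = 0.0319). Eed, a core subunit of that complex, rose by 0.22 ± 0.06 (adjusted p = 0.0448, or 0.0537 with the block), and the mean of its clusters had the opposite sign (-0.01). Phc3 of the canonical complex 1 fell by 0.32 (SE 0.07, adjusted p = 0.0257) and Pcgf6 by 0.36 (SE 0.10, adjusted p = 0.0468). The methyltransferase gene Ezh2 (0.04, adjusted p = 0.72) and Suz12 (-0.02, adjusted p = 0.89) had values near 0. When Rb1L/L replicate 2 was left out, no Polycomb gene was called. Leaving out Rb1+/+ replicates 1, 2 and 3 gave 0, 2 and 1 higher and 1, 1 and 0 lower, and leaving out Rb1L/L replicates 1 and 3 gave 1 higher each and 0 and 1 lower.

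Of 20 tested Trithorax-group genes and H3K27 demethylases, 5 fell and 1 rose (25% and 5%, against 5.08% and 7.1% of all tested genes), with a median of -0.033. Kdm6b, a demethylase that takes off the Polycomb mark, measured 9.42, 9.22 and 9.15 in Rb1+/+ and 8.76, 8.87 and 8.98 in Rb1L/L cultures, without overlap. It fell by 0.39 (SE 0.09, adjusted p = 0.0278). The histone methyltransferase genes Kmt2d (-0.31 ± 0.07, adjusted p = 0.0297) and Kmt2c (-0.29 ± 0.07, adjusted p = 0.0317) fell. So did Kmt2e, a gene of like name (-0.34 ± 0.08, adjusted p = 0.0309), and Ncoa6, a subunit of the Kmt2c and Kmt2d complexes (-0.27 ± 0.07, adjusted p = 0.0418). Psip1, which tethers Kmt2a to chromatin, rose by 0.33 ± 0.07 (adjusted p = 0.027). Kmt2a itself, the methyltransferase best known for keeping Hox genes on, had -0.14 (adjusted p = 0.234). Leaving out Rb1+/+ replicates 1, 2 and 3 in turn gave 0, 3 and 1 lower genes, and leaving out those of Rb1L/L gave 0, 0 and 6. The rise of Psip1 held only without Rb1+/+ replicate 2 among these fits.

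**Figure D4:**
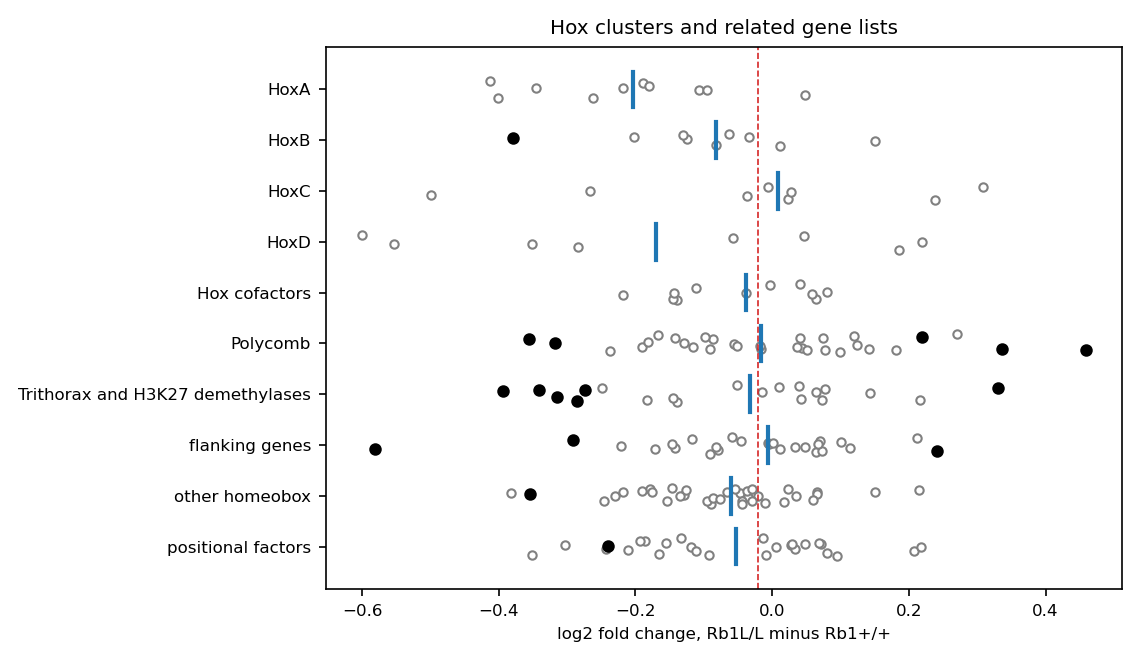
Log2 fold change (horizontal axis) of each tested gene of the Hox clusters and of 6 related lists, filled where the gene passed the adjusted threshold. Blue bars are medians and the dashed red line is the median of all tested genes (-0.021). The HoxA median is -0.20 and the HoxD median -0.17, and the Trithorax list has 5 filled points on the left and 1 on the right.

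Of 36 other homeobox genes of the mesenchyme, 28 had values below 0 (77.8%, against 56.4% of all tested genes), with a median of -0.06. Zfhx3 was the 1 that fell (-0.35 ± 0.09, adjusted p = 0.0456), and it did not pass after median centring, without the filter, or when replicate 1 or 3 of Rb1+/+, or 1 or 2 of Rb1L/L, was left out (adjusted p = 0.0534 to 0.134). With Rb1L/L replicate 1 left out, 2 others of the list were called lower. None rose by limma, nor at an unadjusted p under 0.05. Prrx1, a factor of limb and connective tissue, had -0.10 (adjusted p = 0.408). Of 26 positional and limb factors Pax1, a gene of the vertebral precursors, fell (-0.24 ± 0.06, adjusted p = 0.0367), and none rose (2 at an unadjusted p under 0.05), with a median of -0.053. Tbx3, a T-box factor of the limb and body wall, fell with the block alone (-0.30 ± 0.08, adjusted p = 0.0524, or 0.0325 with the block). Pax1 did not pass after median centring or with any 1 array left out other than Rb1L/L replicate 3 (adjusted p = 0.0532 to 0.123), and with that array left out 4 positional factors were called lower.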

How the data were processed

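Expression was measured on 6 arrays, and the authors deposited log2 values made with RMA, per the submitters' processing notes, which also name Partek; the sources used here give no versions. RMA forces the probe values of the arrays onto one distribution, not the summarised values, and compresses folds of dim genes. Median centring of the deposited values gave 597 lower and 1259 higher genes, against 785 and 1098 without it. Of 35556 transcript clusters, 21789 carried 1 symbol in the platform annotation, 1621 several, and 12146 were not named there. Through the reference table, 21698 were named. For 999 genes with several clusters the brightest was used; each Hox gene had 1. Levels of different genes were not compared. The genotypes were compared by limma (version 3.58.1, R 4.3.3) through lmFit and eBayes, adjusted after Benjamini-Hochberg over 15462 genes at 0.05; the fit was tested on simulated data. Per-array values were named for Hox genes past the threshold with or without the block and for the extremes of each cluster, and up to 4 genes of each related list were named by smallest p, along with others chosen after their values were seen. Members and lists were chosen with earlier results of these data known. Arrays have no read depth, so their number limits the precision. The labels number the replicates but do not say that the numbers pair the samples. The block rests on the deviations of same-numbered arrays, which correlated at 0.301, 0.243 and 0.298 (0.124, 0.197 and 0.261 without X and Y genes). The same correlation was not computed for arrays of different numbers. Alternatives covered the block, normalization, filter, moderation, weights, clusters and left-out arrays.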

Additional observations from a re-analysis of the deposited data

How the results depend on the processing

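The median log2 fold changes of the Hox genes and of each cluster moved by less than the spread between arrays under the 8 analytic alternatives and all fits with arrays left out. That spread was 0.0866 for the Hox genes and 0.133, 0.0913, 0.141 and 0.1725 for HoxA to HoxD. In HoxB, HoxC and HoxD it exceeded the size of the median itself, so this is a weak check. The replicate block, trended robust variances and averaging of clusters could not move these medians, and the stricter filter kept the same 35 genes. Without 1 array the Hox median ran from -0.145 to -0.059, HoxA from -0.247 to -0.119, HoxB from -0.145 to -0.044, HoxC from -0.084 to 0.058 and HoxD from -0.263 to -0.076. HoxD lay below HoxA without Rb1+/+ replicate 1 or 2 or Rb1L/L replicate 3. Hoxb9 was the 1 Hox gene called, and no Hox gene was called higher, after median centring, quantile normalization, other filters, trended robust variances, array weights or averaging of clusters. The count of lower Hox genes was 6 with the replicate block, 0 to 2 without 1 array, and 0 without both arrays numbered 1 or numbered 3. The counts over all genes, 785 lower and 1098 higher, were 186 to 591 and 424 to 850 without 1 array, and 5 and 87 without both arrays numbered 1. Hoxa9 ran from -0.06 to 0.12 without 1 array. In leave-outs added after the data were seen, 10 of the 35 tested Hox genes changed sign without at least 1 array. Among the genes refitted under every alternative, the values that changed sign were those of Hoxa9 without Rb1+/+ replicate 2 (-0.064), Rb1L/L replicate 3 (-0.033) or both arrays numbered 2 (-0.026), Hoxb2 without both arrays numbered 3 (-0.001), and Eed with the mean of its clusters (-0.012). Mir196a-1 was not tested under the stricter filter. The block changed no other Hox call. Except for Eed, which has several clusters, the cause of these changes was not tested.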
